A study of Saccharomyces cerevisiae with 24 samples.

Results

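The genes described here encode the proteins of the cytosolic ribosome of Saccharomyces cerevisiae. They were chosen by symbol alone, as RPL, RPS or RPP followed by a digit, with RPP limited to the stalk genes RPP0, RPP1A, RPP1B, RPP2A and RPP2B. This gave 127 of the 5449 genes tested, 75 of the large 60S subunit (the 5 stalk genes included) and 52 of the small 40S subunit. Yeast carries most of these genes as a pair of copies, A and B. Both copies were measured for 48 pairs, and 17 members are single genes. For 9 further pairs only 1 copy has a value, each read by a probe set that the array design marks as shared with other sequences. Its signal may therefore not be that of 1 copy alone. The 5 stalk genes are counted apart from the pairs.

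The study measured messenger RNA of steady-state chemostat cultures on Affymetrix yeast arrays. An snf1 mutant and a reference strain were grown with nitrogen (N) or carbon (C) as the limiting nutrient and with a high or a low level of inositol and choline, precursors of membrane phospholipids. The 8 groups, of 3 arrays each, were the snf1 mutant N-limited at the high and at the low level, the snf1 mutant C-limited at the high and at the low level, and the reference strain in the same 4 conditions. The labels give the mutant only as snf1, name no other genetic difference from the reference strain and do not state the amounts behind high and low.

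In a growing yeast cell, ribosomal protein messenger RNAs are a large part of all messenger RNA, and their level usually follows the growth rate. The transcription factors Rap1, Fhl1 and Ifh1 act at most of the promoters, and the TOR and protein kinase A pathways signal nutrient supply to them. Snf1 is the yeast AMP-activated protein kinase, needed for growth on carbon sources other than glucose and for relief of glucose repression. A chemostat holds the growth rate constant while the limiting nutrient changes.

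Values are log2 expression values as deposited, so a difference of 1 is a factor of 2, and a level of one gene is not set against that of another. Each difference is the first-named group minus the second, tested with limma over all 5449 genes. A gene was called at a Benjamini-Hochberg adjusted p below 0.05, and only called genes are said to rise or fall. Whether the 3 arrays of a group stem from different cultures is not stated in the labels, so the p-values cover only the spread between these arrays, which may be technical. SNF1 itself lay at 4.95 to 5.02 on the mutant arrays and at 7.09 to 8.47 on the reference arrays. DAL5, a nitrogen-repressed allantoate permease gene, lay at 10.85 to 11.97 on N-limited arrays, including 6 mutant arrays whose title says N and whose description says C limitation, and at 6.83 to 7.13 on C-limited arrays.

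Some arrays differed in a measure linked to RNA quality. The log2 signal near the 3′ end minus that near the 5′ end of 7 control genes, which grows as RNA is degraded, was 2.67, 1.68 and 1.23 on the N-limited snf1 arrays at the high level and 2.74, 1.55 and 1.12 on those of the reference strain. It was 1.14 to 1.25 on the C-limited snf1 arrays at the high level and 0.91 to 0.98 on those of the reference strain. All low-level arrays lay between 0.74 and 0.93. The quantity therefore moves with the high level in every strain and limitation, and fits with it as a covariate, or without replicate 1 of both N-limited high-level groups, are given beside the counts that they move by over 1.5 times. The cause of the difference in the 3′ minus 5′ signal was not tested.

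As a group, the ribosomal protein genes stayed near one level. Their median on an array lay between 10.68 and 10.91 over all 24 arrays. By group, it averaged 10.77 ± 0.06 and 10.90 ± 0.01 in N-limited snf1 at the high and low level (SD, n = 3 arrays, as for the groups that follow). C-limited snf1 had 10.77 ± 0.03 at the high and 10.89 ± 0.01 at the low level. The reference strain had 10.79 ± 0.10 and 10.82 ± 0.02 under N limitation, and 10.82 ± 0.04 and 10.80 ± 0.12 under C limitation, in the same order of levels. In the mutant the medians of high-level arrays lay below those of all low-level arrays of the same limitation. They were 10.72 to 10.83 against 10.89 to 10.91 under N limitation, and 10.74 to 10.81 against 10.88 to 10.90 under C limitation. In the reference strain the levels overlapped under both limitations. The C-limited reference arrays at the low level were spread the most.

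**Figure D1:**
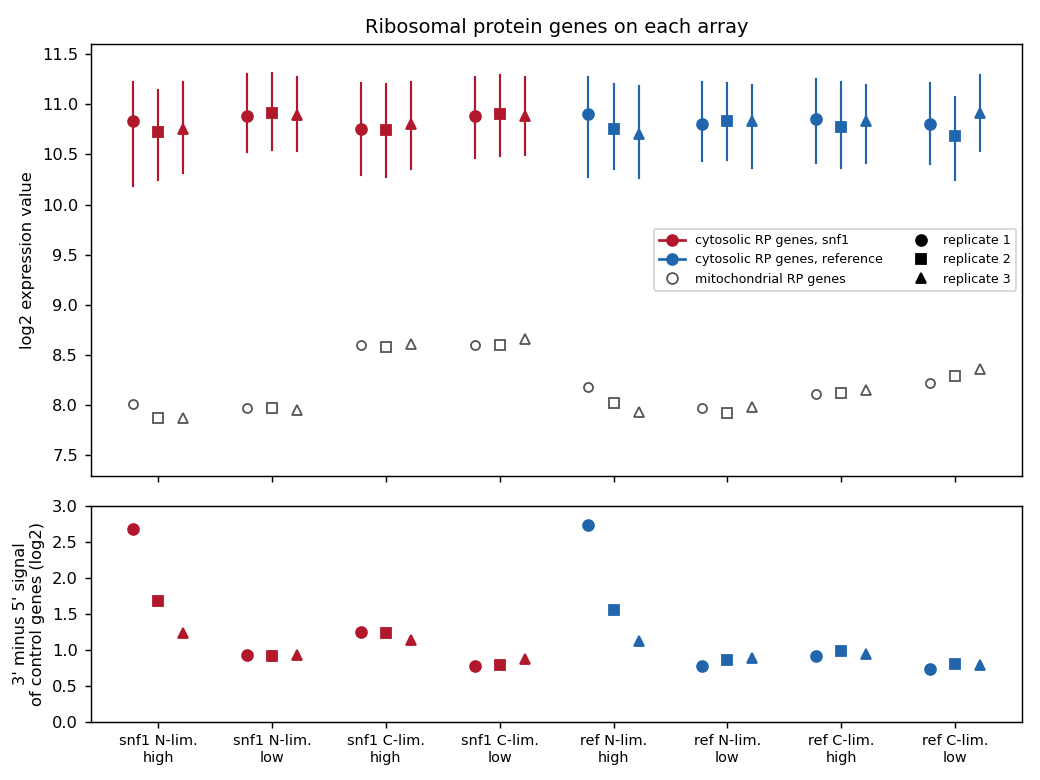
Median log2 value of the 127 cytosolic ribosomal protein genes on each array (filled symbols, bars from lower to upper quartile) and of 66 mitochondrial ribosomal protein genes (open symbols), and, below, the 3′ minus 5′ measure of RNA quality. The cytosolic medians lie between 10.68 and 10.91, while the mitochondrial ones range over 7.87 to 8.66, and replicate 1 of both N-limited high-level groups has the largest 3′ minus 5′ signal.

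Single ribosomal protein genes also varied little. The range of a gene's 8 group means had a median of 0.31 over the members, against 0.54 over all genes, and 84.6% of all genes had a range above the members' median. For 27 members the probe set used was marked as shared with other sequences. Where a gene also had an unshared probe set, its differences were often others, as described at the end. The members and all genes were not matched for signal level. A range under 0.5 was found for 97 members (43.8% of all genes), and a range over 1 for 3 members (15.6% of all genes). Of the members 38, or 29.9%, were called in none of the 12 pairs of groups, against 16.1% of all genes. A further 29 were called in 1 pair, 22 in 2 and 38 in 3 or more. The pooled SD within groups had a median of 0.110 for members and 0.114 for all genes, and of 0.0712 and 0.0590 without the N-limited high-level groups.

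The narrowest ranges were those of RPS29B at 0.10, RPL25 at 0.10, RPL34A at 0.11, RPL1B at 0.12 and RPL14B at 0.13. RPS29B, RPL1B and RPL14B were read by probe sets marked as shared with other sequences. At the high against the low level in the N-limited mutant, the unshared probe set of RPL14B gave -0.35 and the shared one 0.00. For RPS29B the unshared one gave -0.00 and the shared one -0.05. RPL25, whose protein sits at the exit of the peptide tunnel where the signal recognition particle docks, had 11.41, 11.42 and 11.47 on the N-limited high-level and 11.57, 11.52 and 11.52 on the N-limited low-level snf1 arrays. C-limited snf1 arrays had 11.45, 11.50 and 11.47 at the high and 11.48, 11.53 and 11.50 at the low level. N-limited reference arrays had 11.52, 11.46 and 11.42 at the high level. RPL25 was called in none of the 12 pairs. The widest ranges, RPS8B at 1.30, RPL13A at 1.11, RPS28B at 1.09, RPS0B at 0.996 and RPS7A at 0.99, all had their lowest group mean in an N-limited high-level group and are described with that comparison.

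**Figure D2:**
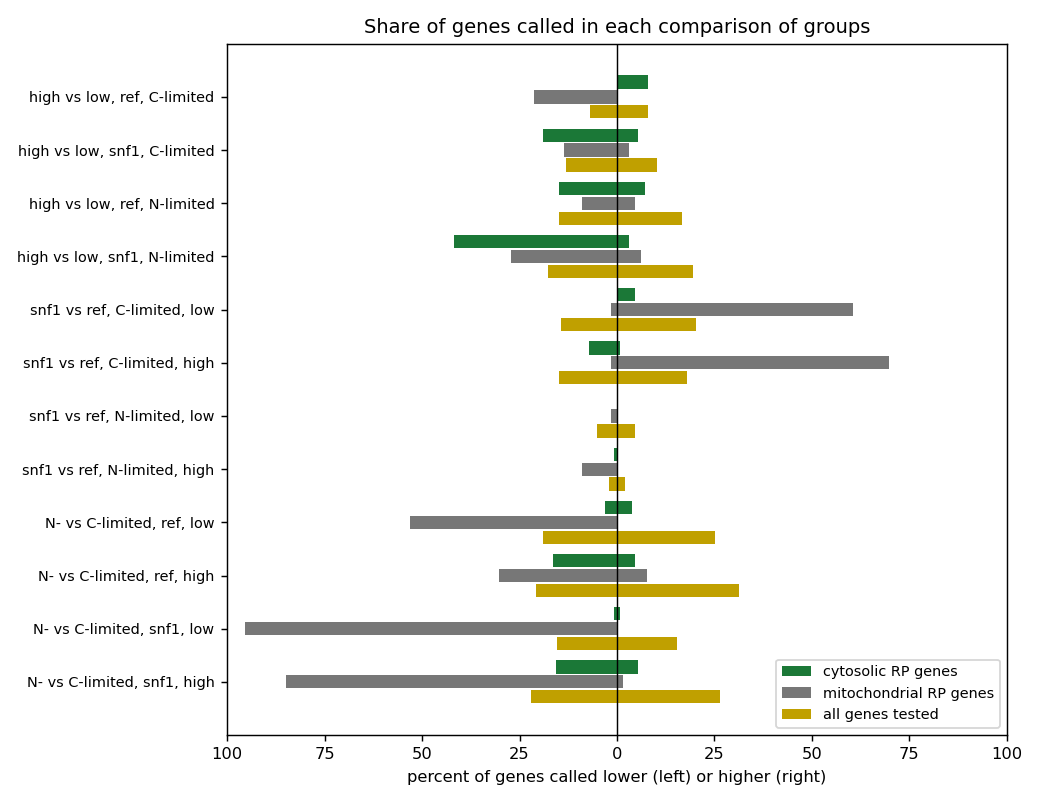
Percent of genes called lower (left of 0) or higher (right of 0) in the 12 pairs of groups, for 127 cytosolic and 66 mitochondrial ribosomal protein genes and all 5449 genes tested. The cytosolic bars exceed those of all genes mainly to the left in the snf1 mutant at the high against the low level, while the mitochondrial bars are long in the comparisons of strains under C limitation and of N with C limitation.

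The first comparison asked how the limiting nutrient bears on these genes. At the low level, N limitation against C limitation left nearly all ribosomal protein genes uncalled, in both strains. In the snf1 mutant 1 rose and 1 fell (1.57% of members), where 30.6% of all genes were called. In the reference strain 5 rose and 4 fell (7.09% of members), where 44.3% of all genes were called. The members' median difference was 0.03 in the mutant and 0.01 in the reference strain, against 0.03 and 0.04 for all genes. For 121 members in the mutant and 117 in the reference strain, the 95% interval of the difference lay within 1.5-fold either way, which held for 77.6% and 70.5% of all genes. In the mutant, a fit of these 6 arrays alone called 29 members higher and 7 lower, and the same fit with replicate number as a block called 29 higher and 9 lower. With the 3′ minus 5′ covariate, and likewise without replicate 1 of both N-limited high-level groups, which are not among these arrays, 5 rose and 3 fell in the mutant. For the reference strain the covariate gave 10 higher and 4 lower. For the reference strain the count was 4 to 5 without replicate 2 or 3 of the N-limited or replicate 2 of the C-limited arrays.

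At the high level, 7 members rose and 20 fell in the mutant (21.3% of members, 48.6% of all genes called), and 6 rose and 21 fell in the reference strain (21.3% of members, 52.3% of all genes called). The median difference was -0.05 in the mutant and -0.06 in the reference strain, against 0.03 and 0.06 for all genes. The falls were spread over both subunits, 9 of 60S and 11 of 40S in the mutant, 9 of 60S and 12 of 40S in the reference strain. The N-limited arrays of these comparisons had a 3′ minus 5′ signal of 1.23 to 2.67 in the mutant and 1.12 to 2.74 in the reference strain, and fits of the arrays compared alone called 11 and 8 members. Without replicate 1 of both N-limited high-level groups, 7 members rose and 30 fell in the mutant, and 4 rose and 38 fell in the reference strain, and without replicate 3 of the N-limited arrays 42 were called in the mutant.

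RPS27A, a zinc-binding protein of the small subunit, was the member that rose under N limitation in both strains at both levels. In the mutant at the low level it had 10.48, 10.54 and 10.54 on N-limited arrays, against 10.18, 10.26 and 10.20 on C-limited arrays. Reference arrays at that level had 10.63, 10.68 and 10.73 under N limitation, against 10.08, 10.04 and 10.32 under C limitation. All N-limited arrays lay above all C-limited arrays of the same strain. The differences were 0.31 ± 0.079 (SE) in the mutant (limma, adjusted p = 0.00545) and 0.53 ± 0.079 in the reference strain (adjusted p = 1.72e-05).
In the mutant at the high level RPS27A had 10.61, 10.53 and 10.47 under N limitation, against 9.87, 9.92 and 9.88 under C limitation. Reference arrays at the high level had 10.94, 10.74 and 10.54 under N limitation, against 10.09, 10.14 and 10.06 under C limitation. These groups did not overlap either, and the difference was 0.64 (adjusted p 1.66e-06) in the mutant and 0.64 (adjusted p 1.39e-06) in the reference strain by limma. Its copy RPS27B rose in 1 of these 4 comparisons, at 0.27 (adjusted p 0.00885) in the mutant at the high level, and was not called in the mutant at the low level (0.10) or in the reference strain at the high (0.14) and low level (0.04).

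RPS14B, 1 of the pair for a small-subunit protein at the platform, fell in the same 4 comparisons. Rps14 protein is known in yeast to hold down RPS14B through its pre-messenger RNA. In the mutant at the low level RPS14B had 9.40, 9.47 and 9.48 on N-limited arrays, against 9.75, 9.89 and 9.86 on C-limited arrays. Reference arrays at that level had 9.36, 9.38 and 9.32 under N limitation, against 9.75, 9.61 and 9.87 under C limitation. The N-limited arrays were lower without overlap, as they were at the high level. The differences were -0.35 (adjusted p 0.00273) and -0.38 (adjusted p 0.00212) in the mutant at the high and low level, and -0.75 (adjusted p 6.80e-07) and -0.39 (adjusted p 0.00113) in the reference strain. Its copy RPS14A rose in the reference strain, by 0.22 (adjusted p 0.00519) at the high and 0.16 (adjusted p 0.0415) at the low level. In the mutant RPS14A was not called, at 0.13 and 0.08.

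RPL9A and RPL9B are the pair for a large-subunit protein near the factor-binding region. In the reference strain at the high level RPL9A had 9.72, 9.20 and 9.23 on N-limited arrays, against 10.25, 10.22 and 10.14 on C-limited arrays. At the low level it had 9.65, 9.62 and 9.47 on N-limited reference arrays, against 10.06, 9.90 and 10.28 on C-limited ones. Neither pair of groups overlapped, and RPL9A fell by 0.82 at the high and by 0.50 at the low level (limma, adjusted p = 3.86e-05 and 0.00449). In the mutant its differences of -0.32 and -0.24 were not called. RPL9B rose in the mutant at the high level, at 0.29 (adjusted p 0.0225), and in the reference strain at the low level, at 0.25 (adjusted p 0.0463).

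In at least 2 of these 4 comparisons 5 members were called higher and 15 lower, against 28.4% and 23.7% of all genes. Besides those above, RPL37B, a zinc-binding protein of the large subunit, rose in the mutant at the high level, at 0.45, and in the reference strain at the high (0.42) and low level (0.30). RPL22B, whose pre-messenger RNA is bound by Rpl22 protein in yeast, fell in the reference strain at both levels, at -0.37 and -0.40. RPL43B, of the large subunit, fell in the mutant at the high level, at -0.65, and in the reference strain at the low level, at -0.32. The 4 comparisons use different arrays and share the estimate of spread. RPS27A was the only member called higher in all 4 and RPS14B the only one called lower, where 8.68% and 5.87% of all genes were.

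**Figure D3:**
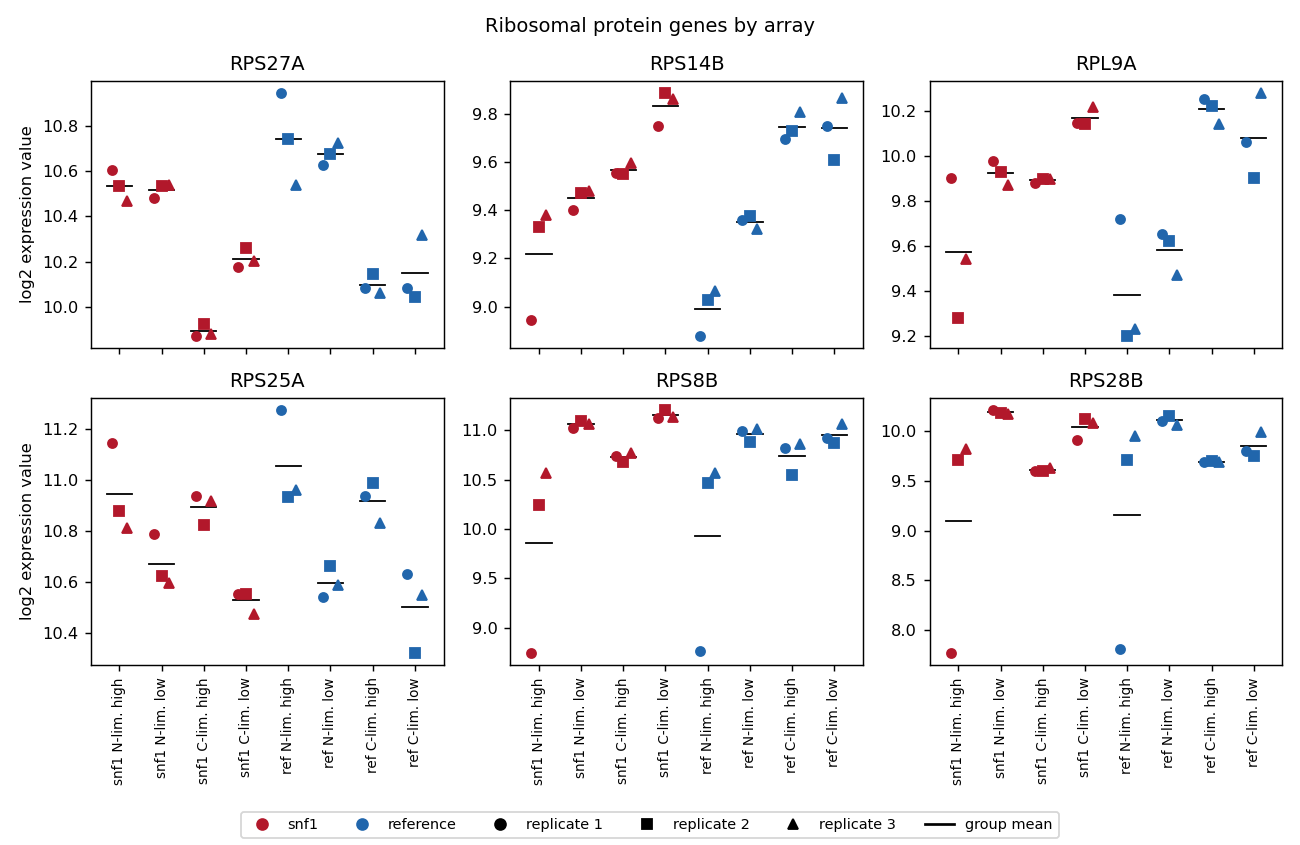
Log2 expression value of 6 ribosomal protein genes on each of the 24 arrays (symbols by replicate, horizontal lines at group means), with snf1 groups in red and reference groups in blue, and a separate axis for each gene. RPS27A is high and RPS14B low on N-limited arrays, RPS25A is high at the high level, and RPS8B and RPS28B drop on replicate 1 of both N-limited high-level groups.

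The next comparison asked what loss of SNF1 did at the same limitation and level. Few ribosomal protein genes differed between strains. Under C limitation 1 rose and 9 fell in the mutant at the high level (32.8% of all genes called), and 6 rose and none fell at the low level (34.4% called). Under N limitation 1 fell at the high level (4.15% called) and 0 of 127 were called at the low level (9.73% called), with 5 and 10 members at an unadjusted p below 0.05. In the same order, the 95% interval lay within 1.5-fold either way for 115, 118, 119 and 118 members, against 76.3%, 76.5%, 92.5% and 89.5% of all genes.

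At the high level under C limitation, RPS23B, a small-subunit protein at the decoding centre, had 10.41, 10.29 and 10.47 on snf1 arrays against 10.85, 10.64 and 10.91 on reference arrays. The groups did not overlap, and RPS23B fell by 0.41 (limma, adjusted p = 0.0225). RPL22B also fell by 0.41 (adjusted p = 0.0473) and RPS22B by 0.30 (adjusted p = 0.0137). RPL43B was the member that rose, at 0.35, with 11.14, 11.09 and 11.20 on snf1 arrays against 10.89, 10.69 and 10.80 on reference arrays. The 3′ minus 5′ measure was 1.14 to 1.25 on these snf1 arrays, against 0.91 to 0.98 on the reference arrays, and with it as a covariate 5 members rose and 21 fell. Without replicate 1 of both N-limited high-level groups 3 rose and 22 fell. Leaving out any 1 of these 6 arrays gave a count of 2 to 5.

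Under C limitation at the low level, RPL23A and RPL2A, both of large-subunit proteins that contact ribosomal RNA at the subunit interface, gave the largest rises. RPL2A had 11.96, 11.94 and 11.96 on snf1 arrays against 11.66, 11.68 and 11.88 on reference arrays, without overlap. RPL2A rose by 0.21 ± 0.051 (adjusted p = 0.00263), RPL23A by 0.29 ± 0.074 (adjusted p = 0.00388), and RPS14A by 0.20 ± 0.061 (adjusted p = 0.014). The reference arrays of this condition are uneven, with replicate 2 lowest of the 3 for 104 members and replicate 3 highest for 109. Without replicate 2 the count of called members was 2 and the median difference 0.01, and without replicate 3 the count was 16 and the median difference 0.13. Leaving out any 1 of the 3 snf1 arrays gave a count of 3. The 3′ minus 5′ covariate gave 20 higher and 1 lower, and without replicate 1 of both N-limited high-level groups 23 rose and 1 fell. With its unshared probe set RPL2A was not called, at 0.13 (adjusted p 0.329).

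Under N limitation at the low level the differences of the members were small and nearly all of one sign. The difference was above 0 for 123 of 127, with a median of 0.09 against -0.00 for all genes, and for 78 members every snf1 array lay above every reference array, which held for 27.0% of all genes. No member passed the test. The limma spread is estimated over all 8 groups, and the N-limited high-level groups varied the most, with a median SD per gene of 0.184 in the mutant and 0.186 in the reference strain, against 0.033 to 0.065 in the other 6 groups. In a fit of these 6 arrays alone 52 members rose and 1 fell, and with replicate number as a block, 62 rose and 1 fell. Over all groups, the 3′ minus 5′ covariate gave 7 higher and 1 lower, and leaving out replicate 1 of both N-limited high-level groups gave 10 higher and none lower. The number of calls thus differed with the arrays and terms in the fit, and the cause was not tested. Under N limitation at the high level RPS21A, a small-subunit protein, had 10.66, 10.72 and 10.77 on snf1 arrays, against 10.92, 11.05 and 10.85 on reference arrays, and fell by 0.22 (limma, adjusted p = 0.0486), and with replicate number as a block no member was called. RPS21A was not called with quantile normalization (-0.17), median centring (-0.22) or without replicate 1 of both groups (-0.21). The covariate gave 2 members higher and 4 lower.

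The third comparison set the high level of inositol and choline against the low one. In the reference strain under C limitation 10 members rose and none fell (7.87% of members, where 14.8% of all genes were called and 7.85% called higher), and all 10 belong to the 40S subunit. Of these, 5 were read by probe sets marked as shared with other sequences: RPS10A, RPS10B, RPS11B, RPS19B and RPS23A. Their unshared probe sets gave 0.31, 0.49, -0.03, 0.16 and -0.04 in that order, so RPS11B and RPS23A changed sign. RPS22A had 10.39, 10.33 and 10.32 at the high against 10.06, 9.55 and 10.11 at the low level and rose by 0.44 ± 0.11 (limma, adjusted p = 0.0138). RPS10B, of the small subunit, had 10.26, 10.27 and 9.97 at the high against 9.64, 9.73 and 9.86 at the low level and rose by 0.43 ± 0.099 (adjusted p = 0.00822). Neither gene overlapped between levels. The lowest array of RPS22A was replicate 2 of the low-level group, without which 2 members were called. Without replicate 1 of the high-level group 3 were called, and without its replicate 2 there was 1. The 3′ minus 5′ measure was 0.91 to 0.98 at the high against 0.74 to 0.80 at the low level. With it as a covariate 23 members rose and 6 fell, and without replicate 1 of both N-limited high-level groups 24 rose and 8 fell.

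In the snf1 mutant under C limitation 7 members rose and 24 fell. This was 24.4% of the members, close to the 23.4% of all genes called, of which 10.2% were higher and 13.2% lower. The median difference was -0.09, against -0.01 for all genes. RPS21A had 10.95, 10.93 and 10.90 at the high and 11.30, 11.28 and 11.37 at the low level and fell by 0.39 (limma, adjusted p = 1.46e-04). RPS23B fell by 0.50 and RPL26A, a tunnel-exit protein, by 0.39. In both, the high-level arrays lay below all low-level arrays. With the 3′ minus 5′ signal as a covariate 11 rose and 48 fell, at a median difference of -0.08, and without replicate 1 of both N-limited high-level groups 10 rose and 54 fell. A fit of these 6 arrays alone called 18 higher and 63 lower, and in the fit over all groups leaving out any 1 of the 6 gave a count of 14 to 22.

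In the N-limited snf1 mutant 4 members rose and 53 fell (44.9% of members, where 37.2% of all genes were called, 19.5% higher and 17.7% lower). This was the pair of groups with the most members called, 33 of the falls being 60S and 20 being 40S genes, and the median difference was -0.15, against 0.02 for all genes. In the N-limited reference strain 9 rose and 19 fell (22.0% of members, where 31.5% of all genes were called), at a median difference of -0.03 against 0.03 for all genes. RPS21A had 10.66, 10.72 and 10.77 at the high against 11.23, 11.32 and 11.32 at the low level in the mutant and fell by 0.57 (adjusted p = 1.99e-06). RPL6B, of the large subunit, had 9.93, 9.76 and 10.16 at the high against 10.55, 10.66 and 10.59 at the low level and fell by 0.65 (adjusted p = 8.82e-06). Neither overlapped between levels. Without replicate 1 of both N-limited high-level groups, 2 members rose and 63 fell in the mutant, and 5 rose and 30 fell in the reference strain. With the 3′ minus 5′ covariate, 1 rose and 52 fell in the mutant, and 11 rose and 18 fell in the reference strain. Fits of the arrays compared alone called 14 members in the mutant, 13 of them lower, and 1 in the reference strain. The count in the mutant was 37 without replicate 1 of the high-level and 36 without replicate 3 of the low-level arrays. In the reference strain it was 14 without high-level replicate 1, 49 without high-level replicate 3, and 15 and 14 without low-level replicates 1 and 3.

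**Figure D4:**
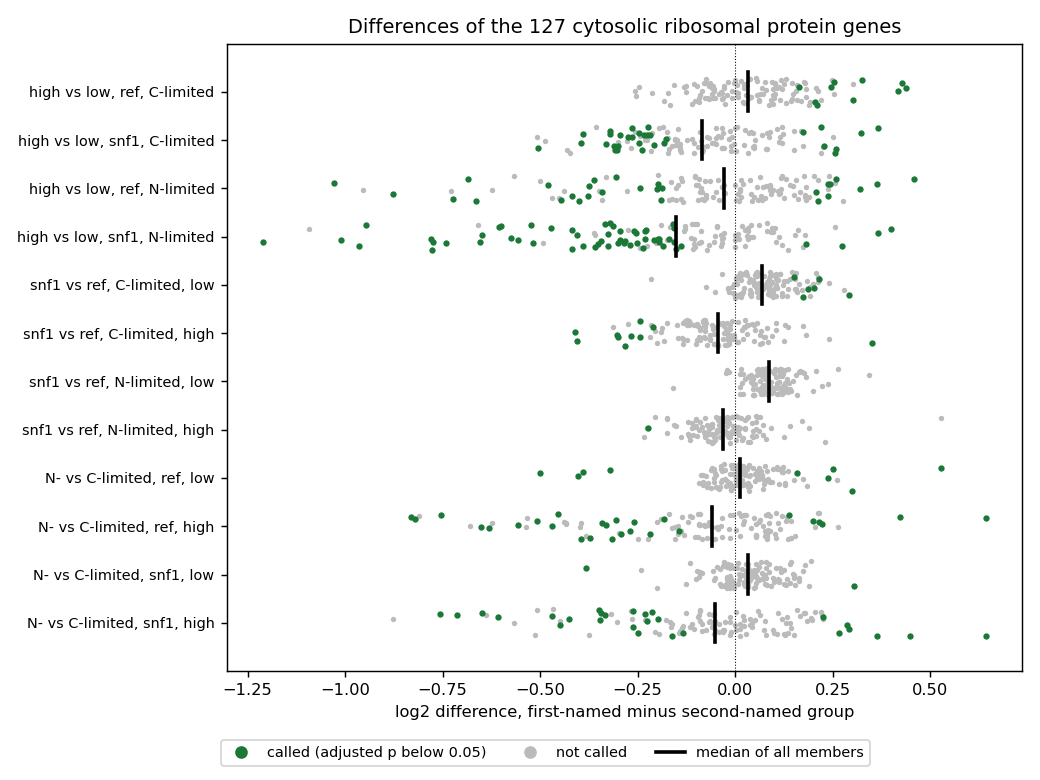
Log2 difference of each of the 127 cytosolic ribosomal protein genes in the 12 pairs of groups, first-named minus second-named, with called genes in green and black bars at the medians. The points reach furthest to the left for the high against the low level under N limitation, where the median in the snf1 mutant is -0.15.

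The largest falls of these 2 comparisons took much of their size from 1 array in each strain. RPS8B, of the small subunit, had 8.75, 10.24 and 10.57 at the high against 11.03, 11.10 and 11.06 at the low level in the mutant. The reference strain had 8.76, 10.47 and 10.57 at the high against 10.99, 10.88 and 11.01 at the low level. It fell by 1.21 in the mutant and by 1.03 in the reference strain (limma, adjusted p = 0.0178 and 0.0467). Replicate 1 was far below the other 2 arrays in both strains. Without that pair of arrays the difference was -0.66 in the mutant (adjusted p 4.52e-06) and -0.44 in the reference strain (adjusted p 0.000472). With the 3′ minus 5′ covariate it was -0.05 (adjusted p 0.731) in the mutant and 0.16 (adjusted p 0.265) in the reference strain.
RPS28B, whose copy RPS28A is also measured, had 7.77, 9.71 and 9.82 at the high against 10.21, 10.18 and 10.18 at the low level in the mutant. The reference strain had 7.81, 9.71 and 9.96 at the high against 10.11, 10.16 and 10.07 at the low level. It was not called, at -1.09 (adjusted p 0.0597) and -0.95 (adjusted p 0.106). RPS28A, at 10.70, 10.48 and 10.48 at the high against 10.56, 10.56 and 10.54 at the low level in the mutant, had its highest value on replicate 1. Without replicate 1 of both high-level groups the RPS28B difference was -0.43 (adjusted p 6.08e-05) in the mutant and -0.28 (adjusted p 0.00409) in the reference strain. It changed sign with the 3′ minus 5′ covariate, to 0.25 (adjusted p 0.146) in the mutant and 0.42 (adjusted p 0.0207) in the reference strain.

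On replicate 1, 8 members in the mutant and 7 in the reference strain lay 1 or more below the lower of the other 2 arrays, and 6 genes were in both sets, RPL10, RPL17B, RPS0B, RPS7A, RPS8B and RPS28B. Over all genes this held for 2.61% in the mutant and 2.99% in the reference strain. RPS7A, a small-subunit protein, had 8.89, 9.93 and 10.23 at the high against 10.72, 10.60 and 10.62 at the low level in the mutant and fell, at -0.96 (adjusted p 0.00794), and was not called in the reference strain, at -0.62 (adjusted p 0.0786). With the covariate RPS7A was not called in the mutant either, at -0.17 (adjusted p 0.136), and without the pair of replicate 1 arrays it was -0.57 (adjusted p 1.54e-05). RPS0B, also of the small subunit, had 8.87, 10.17 and 10.32 at the high against 10.68, 10.81 and 10.72 at the low level in the mutant. It fell in both strains, at -0.95 (adjusted p 0.0206) in the mutant and -0.88 (adjusted p 0.0362) in the reference strain by limma, with the high-level arrays below all low-level arrays. Without the pair of replicate 1 arrays RPS0B had -0.49 (adjusted p 5.62e-06) in the mutant and -0.42 (adjusted p 5.96e-05) in the reference strain. With the covariate both calls were lost, at -0.02 (adjusted p 0.867) in the mutant and 0.07 (adjusted p 0.599) in the reference strain. RPL10, the protein that joins the large subunit last, had 10.21, 11.71 and 11.87 on the mutant and 10.62, 11.80 and 11.90 on the reference arrays, and 11.81 to 11.98 on all arrays of the other 6 groups. RPL13A, also of the large subunit, had 7.98, 9.23 and 9.56 at the high against 9.87, 10.04 and 9.89 at the low level in the mutant and fell by 1.01 (adjusted p = 0.0091), against -0.54 (adjusted p 0.000245) without the pair of replicate 1 arrays and -0.18 (adjusted p 0.229) with the covariate. No member lay 1 or more above the other arrays on replicate 1, although replicate 1 was the highest of the 3 for 64 members in the mutant and 67 in the reference strain.

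A few members rose at the high level. RPS25A, a small-subunit protein near the exit site for transfer RNA, was the one called in all 4 pairs, where 1.73% of all genes were called higher 4 times. In the N-limited mutant it had 11.14, 10.88 and 10.81 at the high, against 10.79, 10.62 and 10.59 at the low level. In the C-limited mutant it had 10.94, 10.82 and 10.91 at the high, against 10.55, 10.55 and 10.47 at the low level. Every high-level array lay above every low-level array in both. The N-limited reference strain had 11.27, 10.93 and 10.96 at the high, against 10.54, 10.66 and 10.59 at the low level. The C-limited reference strain had 10.94, 10.99 and 10.83 at the high, against 10.63, 10.32 and 10.55 at the low level. Levels did not overlap there either. By limma the differences were 0.28 (adjusted p 0.0322) in the N-limited and 0.37 (adjusted p 0.0103) in the C-limited mutant, and 0.46 (adjusted p 0.0019) in the N-limited and 0.42 (adjusted p 0.00824) in the C-limited reference strain. The first was no longer called with the 3′ minus 5′ covariate, at 0.07 (adjusted p 0.508), or without replicate 1 of both N-limited high-level groups, at 0.18 (adjusted p 0.0540).
RPL39, a small protein lining the exit tunnel, rose in the mutant under both limitations, at 0.37 and 0.32, and in the N-limited reference strain, at 0.32. RPL28, also of the large subunit, rose in the same 3 pairs, at 0.18, 0.22 and 0.24. RPS31, made as a fusion with ubiquitin, rose in the C-limited mutant (0.23) and in the reference strain under N (0.24) and C limitation (0.25). RPL40A, the other ubiquitin fusion, rose in the N-limited reference strain at 0.26, and its copy RPL40B was called in none of the 12 pairs. The calls of RPL39 in the N-limited mutant (0.14) and of RPS31 (0.08) and RPL40A (0.13) in the N-limited reference strain were lost with the 3′ minus 5′ covariate. The calls of RPS31 were also lost with quantile normalization, at 0.18 to 0.19. RPS30A, of the small subunit and read by a shared probe set, had the largest rise in the N-limited mutant, at 0.40. Its group means were 11.41 at the high and 11.01 at the low level. It also rose in the N-limited reference strain (11.34 against 10.98), and in the mutant at the high level under N against C limitation (11.41 against 11.05). The 3′ minus 5′ signal of the N-limited high-level arrays was 1.23 to 2.67 in the mutant and 1.12 to 2.74 in the reference strain.
At least 3 of the 4 pairs had 10 members called lower and 4 higher, against 6.07% and 5.74% of all genes. The 10 were RPL5, RPL6B, RPL13B, RPL21B, RPL26A, RPP2B, RPS9B, RPS14B, RPS21A and RPS23B. RPL5 carries the 5S ribosomal RNA into the large subunit, and differed by -0.36 in the N-limited mutant, -0.28 in the C-limited mutant and -0.20 in the N-limited reference strain.

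The stalk of the large subunit, which recruits translation factors, is formed by RPP0 and 2 pairs of acidic proteins. RPP2B fell at the high level in 3 of 4 pairs, with 10.95, 10.95 and 11.06 at the high against 11.29, 11.28 and 11.27 at the low level in the N-limited mutant, without overlap, at -0.29 (adjusted p 7.24e-05). The difference was -0.18 (adjusted p 0.00664) in the C-limited mutant and -0.19 (adjusted p 0.00463) in the N-limited reference strain. RPP2A fell in the N-limited mutant only, at -0.19 (adjusted p 0.0156). RPP1B rose under N limitation in the reference strain at the high level, at 0.14 (adjusted p 0.0461), though not with the 3′ minus 5′ covariate (0.03) or without replicate 1 of both N-limited high-level groups (0.07), and RPP0 and RPP1A were called in none of the 12 pairs. RPL3, near the peptidyl transferase centre, rose in the C-limited mutant against the reference strain at the low level, at 0.15 (adjusted p 0.0424), and fell at the high against the low level in that mutant, at -0.21 (adjusted p 0.0114). RPL30, whose protein binds its own pre-messenger RNA, rose under N limitation in the reference strain at the high level, at 0.20 (adjusted p 0.0186), and was not called with the covariate, at 0.15 (adjusted p 0.0860). RPL7A and RPL8A fell at the high level in the N-limited mutant, at -0.20 and -0.52, as did RPL8B at -0.60. RPL7A (-0.04) and RPL8B (-0.07) were not called there with the 3′ minus 5′ covariate, with which RPL8A had -0.17 (adjusted p 0.019). RPL41A, which encodes the shortest ribosomal protein, fell under N limitation in the mutant at the high level, at -0.26 (adjusted p 0.0413). RPL7A and RPL41A were each read by a probe set marked as shared with other sequences.

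The copies of a gene were often called differently, though the difference between copies was not itself tested. In the N-limited mutant, at the high against the low level, both copies were called in the same direction for 12 of 48 pairs, 1 copy for 19 and neither for 17. Under N against C limitation in the reference strain, both were called in the same direction for 5 pairs at the high level and in opposite directions for 1, RPS14. At the low level of that strain 2 pairs were called in opposite directions, RPS14 and RPL9. In the C-limited mutant, at the high against the low level, 1 pair was, RPS23. Copies with near-identical sequence can share signal, and 27 members were read by probe sets that the array design marks as shared with other sequences.
RPS23A is a case where the choice of probe set decides the sign. The brighter, shared probe set gave a rise at the high level in the C-limited mutant, 0.26 (adjusted p 0.0182). The other probe set of RPS23A had 10.44, 10.30 and 10.47 at the high and 10.94, 10.90 and 10.90 at the low level, a difference of -0.51 (adjusted p 0.0564). RPS23B, read by its own probe set, had 10.41, 10.29 and 10.47 at the high against 10.89, 10.89 and 10.90 at the low level.

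**Figure D5:**
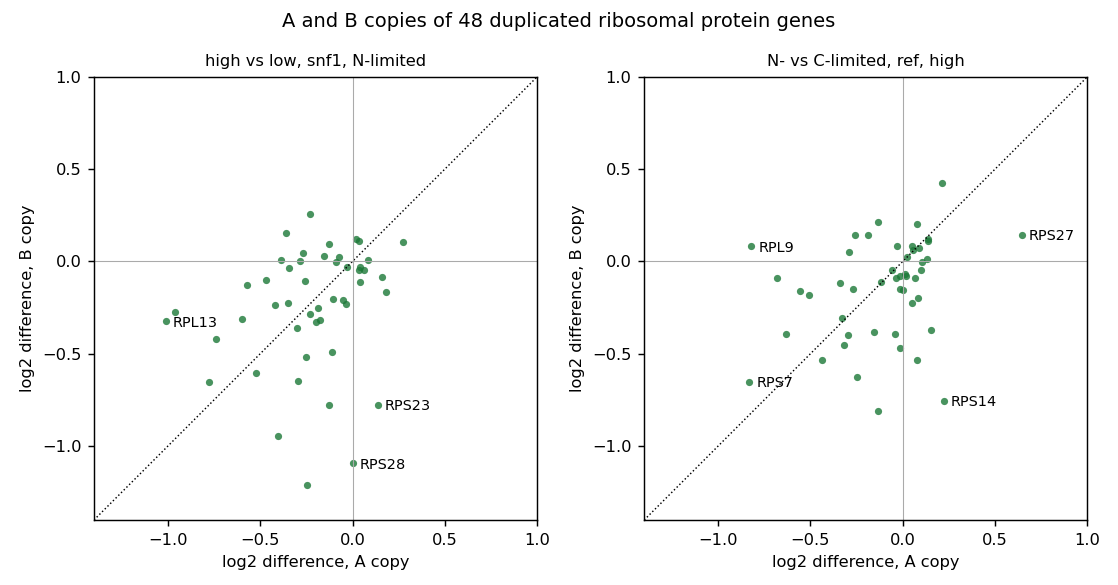
Log2 difference of the A copy (horizontal) and the B copy (vertical) of 48 duplicated ribosomal protein genes, for the high against the low level in the N-limited snf1 mutant (left) and for N against C limitation in the reference strain at the high level (right). Points on the dotted line have equal differences; RPS28 lies far below it on the left, and RPL9, RPS14 and RPS27 off it on the right.

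Whether the effects differ between strains, limitations or levels was tested by interactions, in which few members were called. The effect of the high level differed between strains under N limitation for 0 members (2.07% of all genes) and under C limitation for 1 (4.15%), with 7 and 21 members at an unadjusted p below 0.05. It differed between limitations for 5 members in the mutant (15.0%) and for 0 in the reference strain (4.94%, 14 members unadjusted). The strain effect differed between limitations for 2 at the high level (20.6%) and for 0 at the low level (19.5%, 0 members unadjusted). These counts were 3, 13, 12, 5, 10 and 2 with the 3′ minus 5′ covariate, in the same order. RPS14B was 1 of those 2, its fall under N limitation at the high level being smaller in the mutant by 0.41 ± 0.12 (limma, adjusted p = 0.0241). The strain by level interactions were nearly all of one sign. Under N limitation the value was below 0 for 118 of 127 members, with a median of -0.12 against -0.00 for all genes. Under C limitation it was below 0 for 111, with a median of -0.14 against -0.01. A shift of the members as a set was not tested.

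For the gene lists that follow, only the fit of all 24 arrays without the 3′ minus 5′ covariate is given. The N-limited high-level arrays used there had a 3′ minus 5′ signal of 1.23 to 2.67 in the mutant and 1.12 to 2.74 in the reference strain. Of 12 regulators of ribosomal protein genes, 4 rose and none fell under N against C limitation in the mutant at either level. There 26.5% and 15.3% of all genes were called higher at the high and low level, and 22.1% and 15.3% lower. For the reference strain 5 rose at both levels, and 2 fell at the high and 1 at the low level. In that strain 31.4% and 25.1% of all genes were called higher, and 20.9% and 19.1% lower. Over all 12 pairs CRF1 differed the most. Crf1 is a corepressor described to act through Fhl1 at these promoters. Under C limitation at the high level it had 5.38, 5.28 and 5.35 on snf1 arrays, against 6.73, 6.60 and 7.03 on reference arrays. At the low level it had 5.39, 5.27 and 5.27 on snf1 arrays, against 7.01, 7.15 and 6.40 on reference arrays. On N-limited arrays at the high level it had 5.50, 5.39 and 5.59 in the mutant and 5.40, 5.45 and 5.68 in the reference strain. CRF1 was thus high on the C-limited reference arrays, and elsewhere between 5.17 and 5.68, around 5.59, the 95th percentile of probe sets for another species. With that value as the least level of each array, only a lower bound of its differences can be given, and of the dim arrays in these comparisons 1, an N-limited high-level reference array, lay above it. Under C limitation CRF1 was at least 2.28-fold lower in the mutant at the high and at least 2.39-fold lower at the low level (limma, adjusted p = 7.24e-08 and 2.89e-08). Under N against C limitation in the reference strain it was at least 2.24-fold lower at the high and at least 2.39-fold lower at the low level (adjusted p = 2.70e-07 and 1.84e-08).
The median difference of the ribosomal protein genes was -0.04 and 0.07 between strains in these comparisons, and -0.06 and 0.01 between limitations. RAP1 rose under N against C limitation in both strains at both levels, by 0.40 and 0.20 in the mutant at the high and low level and by 0.16 and 0.32 in the reference strain. TOR1, a kinase of the TOR pathway, rose in the same 4, by 0.66 and 0.29 in the mutant and 0.47 and 0.52 in the reference strain. FHL1 and SFP1 were called in none of the 12 pairs, and IFH1 rose in 1, at 0.35 (adjusted p 0.00449).

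Of 9 measured elongation factor genes, 2 rose and 3 fell in the mutant under C limitation at the high level, and 3 rose and 2 fell at the low level. Of all genes, 18.0% were called higher and 14.8% lower at the high level, and 20.2% and 14.3% at the low level. HEF3, the second gene for elongation factor 3, followed the arrays on which CRF1 was high. It had 6.61, 6.56 and 6.64 on snf1 against 9.41, 9.23 and 9.38 on reference arrays under C limitation at the high level, without overlap. The difference was -2.73 (adjusted p 4.35e-09) there and -2.51 (adjusted p 1.58e-08) at the low level, and under N limitation HEF3 fell in the reference strain at -2.72 and -2.95. YEF3, the main gene for elongation factor 3, rose in the mutant under C limitation by 0.18 and 0.34, at the high and low level.

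Of 10 genes for chaperones and assembly factors of ribosomal proteins, 5 to 9 fell under N against C limitation and none rose. In the mutant 7 fell at the high and 6 at the low level, where 22.1% and 15.3% of all genes were called lower. For the reference strain 9 fell at the high and 5 at the low level, where 20.9% and 19.1% of all genes were called lower. BCP1, the chaperone of Rpl23, fell by 0.86 in the mutant at the high level (adjusted p = 5.54e-11) and RRB1, which binds Rpl3, by 0.66 (adjusted p = 3.50e-07). SYO1, which brings Rpl5 and Rpl11 into the nucleus, fell by 0.74 (adjusted p = 6.38e-08). RPL3, RPL5 and the RPL23 genes were not called in that comparison.
Of the 8 RNA polymerase I genes, 3 fell and 1 rose under N limitation at the high level in both strains, a share close to the 48.6% and 52.3% of all genes called, with RPA49 at -0.60 in the mutant and -0.61 in the reference strain. Among 14 ribosome-associated factors, MAP1, a methionine aminopeptidase, rose under N limitation in all 4 comparisons, by 0.73 and 0.58 in the mutant at the high and low level and by 0.97 and 0.84 in the reference strain. Of that list 1 rose in the mutant at both levels, and 5 fell at the high and none at the low level. There 26.5% and 15.3% of all genes were called higher at the high and low level, and 22.1% and 15.3% lower. For the reference strain 4 rose and 2 fell at the high level, and 5 rose and none fell at the low level. In that strain 31.4% and 25.1% of all genes were called higher, and 20.9% and 19.1% lower.

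The 66 genes of the mitochondrial ribosome, given for contrast, were called in large numbers between strains under C limitation and between limitations. Between limitations more were called in the mutant than in the reference strain. In the snf1 mutant under C limitation 46 rose and 1 fell at the high level, and 40 rose and 1 fell at the low level, where 18.0% and 20.2% of all genes were called higher. Under N against C limitation in the mutant 56 fell and 1 rose at the high level, and 63 fell and none rose at the low level, where 22.1% and 15.3% of all genes were called lower. In those 4 comparisons, taken in the same order, 1, 6, 7 and 1 cytosolic ribosomal protein genes rose and 9, 0, 20 and 1 fell. For the reference strain under N against C limitation, 20 mitochondrial genes fell and 5 rose at the high level, and 35 fell and none rose at the low level. There 20.9% and 19.1% of all genes were called lower. The difference between the 2 kinds of gene was not tested.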

How the data were processed

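The 24 arrays were grouped by their titles into 8 groups of 3, and for 6 of them the description names another limitation than the title. The deposited log2 values were made by the authors with PLIER, a probe-set summary method, per the submitters' processing notes, with the version, background step and between-array normalization not given in the sources used here, and base 2 was read from the range of 4.82 to 13.25. Column medians lay between 5.93 and 6.00, and no scaling was added.

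Of 10928 probe sets, 7244 have 1 symbol in the annotation used, 1 has several and 3683 are not listed. Through RefSeq identifiers 5498 matched Saccharomyces cerevisiae, and each gene kept its brightest probe set on average, which gave 5449. No member lay below the dim level of 5.59, the 95th percentile of means over 1746 probe sets of another species, and 274 genes did.

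One mean per group was fitted with limma 3.58.1 in R 4.3.3 (16 residual degrees of freedom), with 12 pair comparisons, 6 interactions and Benjamini-Hochberg adjustment over all genes at 0.05. The script was tested on simulated data. The number of arrays limits the precision. Same-numbered arrays deviated together, with every correlation over 0.1, in 3 pairs of groups: the strains under N limitation at the low level (0.165, 0.313 and 0.405) and at the high level (0.901, 0.784 and 0.868), and the limitations in the mutant at the low level (0.173, 0.461 and 0.392). Alternatives were quantile normalization, median centring, a filter on dim genes, the mean of probe sets, unshared probe sets (chosen after seeing the data), the 3′ minus 5′ covariate, leaving out arrays, fits of the arrays compared alone, and a replicate block.

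The members, the gene lists and the rule for named genes were chosen with earlier results of these data known. The rule names, per pair of groups, the 3 largest rises and falls among called members without overlap and the 2 gene pairs with the largest gap between copies, then the smallest adjusted p per interaction, the 5 widest and 5 narrowest ranges, and a fixed set. RPL5, RPL11A, RPL17A, RPL17B, RPL21B, RPL13B, RPL28 and RPS9B were named for repeated calls, an interaction or low arrays after their values were seen.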

Additional observations from a re-analysis of the deposited data

Results flagged for a closer look

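In 8 cases a ribosomal protein gene's effect differed between groups by a test of the difference itself (interaction in limma, adjusted p below 0.05 over all genes). RPL27B, of the large subunit, differed between strains in its change with the level under C limitation, by -0.35 ± 0.086 (SE; adjusted p = 0.0239). It fell at the high level in the mutant, at -0.25 (adjusted p 0.00672), and was not called in the reference strain, at 0.10. RPS27A differed between limitations in its change with the level in the mutant, by 0.34 ± 0.11 (adjusted p = 0.0482), at 0.02 under N and -0.32 under C limitation. RPL11A, which enters the large subunit with 5S ribosomal RNA, had the largest difference of the 8, in the same interaction, by -0.65 ± 0.19 (adjusted p = 0.024). It fell under N limitation, at -0.47, and was not called under C limitation, at 0.17. RPL6B differed there by -0.38 ± 0.11 (adjusted p = 0.0278) and fell under both, at -0.65 under N and -0.27 under C limitation. RPL14A and RPS1B differed in the same interaction by -0.37 ± 0.087 and -0.39 ± 0.11 (adjusted p = 0.00596 and 0.0159). Both fell under N limitation, at -0.28 and -0.31, and neither was called under C limitation, at 0.09 and 0.08.

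RPS14B differed between strains in its change with limitation at the high level, by 0.41 ± 0.12 (adjusted p = 0.0241), falling by 0.35 in the mutant and by 0.75 in the reference strain. RPL15B, of the large subunit, differed in the same interaction by 0.32 ± 0.11 (adjusted p = 0.0467), at 0.18 in the mutant and -0.15 in the reference strain, neither of them called. The RPS14B interaction, like that of RPL15B, was not among called genes in a fit of the arrays compared alone, where no member was called.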

How the results depend on the processing

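Under every alternative other than leaving out single arrays, the median difference of the 127 genes stayed within 0.062 of its reported value. That limit is the pooled SD of the array medians within groups, not the largest move seen. Several reported medians were smaller than it, so a change of sign could lie within it. Without the C-limited low-level reference replicates in turn, the median was 0.0078 to 0.1348 for the mutant against the reference strain in that condition, and -0.12 to -0.0062 for the interaction of limitation and level in the reference strain. Counts of called genes moved far more, and the cause was not tested. Fits of fewer arrays have fewer degrees of freedom and estimate the spread from those arrays alone. Fits of the arrays compared alone gave more calls in some comparisons and fewer in others. Counts follow in the order in which the comparisons are named: high against low level (reference C, mutant C, reference N, mutant N), mutant against reference (C low, C high, N low, N high), N against C (reference low, reference high, mutant low, mutant high), then the interactions strain by level (C, N), limitation by level (reference, mutant) and strain by limitation (low, high).

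With the 3′ minus 5′ covariate, the counts that moved by over 1.5 times were 29 for reference C and 59 for mutant C, then 21, 8, 6 and 26 for the mutant against the reference at C low, N low, N high and C high. They were 14 for reference low and 8 for mutant low in N against C, and 13, 3, 5, 12, 2 and 10 in the interactions. Without replicate 1 of both N-limited high-level groups they were 32 and 64, then 24, 25, 10 and 2, then 42 for reference high and 8 for mutant low, and 19, 2, 10, 11, 2 and 10. In fits of the arrays compared alone they were 81, 1 and 14 for mutant C, reference N and mutant N, then 10, 35, 53 and 0, then 8, 36 and 11 for reference high, mutant low and mutant high, and 14, 2 and 0 for the interactions strain by level at C and strain by limitation at low and high.

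With the replicate block in the same arrays the counts were 78, 0 and 0 for mutant C, reference N and mutant N, then 38, 63 and 0 for the mutant against the reference at C high, N low and N high, then 4, 38 and 4, and 18, 3, 2 and 0 for strain by level at C, limitation by level in the mutant and strain by limitation at low and high. In the 9 other pairs of groups, where not every correlation was over 0.1, the arrays share only a number.

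Median centring gave 3 for the mutant against the reference at C low and 0 at N high. Quantile normalization gave 5 at C high and 0 at N high, and 1 and 1 for strain by limitation. The filter on dim genes gave 0 at N high. Unshared probe sets gave 2 at N high, and 2, 1 and 1 for strain by level at C and N and limitation by level in the reference strain. Without the 6 arrays whose labels disagree the last was 3, and with the mean of probe sets limitation by level in the mutant was 8.

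Leaving out 1 array gave 1 to 10, 14 to 22, 14 to 49 and 36 to 59 for the level, 2 to 16, 2 to 5, 0 to 0 and 0 to 3 for the strain, 4 to 13, 21 to 40, 2 to 2 and 18 to 42 for the limitation, and 0 to 5, 0 to 1, 0 to 4, 2 to 11, 0 to 1 and 0 to 5 for the interactions.

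Among 1141 values of named genes under settings other than leaving out an array, the sign differed from the reported value in 24, of which 17 were called in neither fit and 7 in at least 1. RPS23A at the high level in the C-limited mutant was -0.13 with the mean of probe sets and -0.51 with the unshared probe set. With the 3′ minus 5′ covariate in the N-limited reference strain RPS8B was 0.16, RPS0B 0.0707, RPS28B 0.42 and RPS8A 0.17, and in the N-limited mutant RPS28A was -0.23. RPS28B, not called in that mutant, had 0.25 there (adjusted p 0.146). No scaling moved the median of all genes by more than 0.0277. The means of the members lay between 8.24 and 11.81, above the dim level of 5.59. A limit at the bright end was not tested.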

Other observations

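For 20 ribosomal protein genes the array holds both a probe set marked as shared with other sequences and one that is not. The unshared probe set gave the lower difference between the high and the low level for 13 of 20 genes in the N-limited mutant, with a median of -0.27 against -0.05 for the shared ones. It was the lower for 15 of 20 in the C-limited mutant (-0.06 against 0.03), in the N-limited reference strain (-0.10 against 0.08) and in the C-limited reference strain (0.04 against 0.15). The sign differed between the 2 probe sets of a gene for 8, 10, 9 and 9 genes in these comparisons. Between strains under N limitation at the low level it differed for 3 of 20. At the high against the low level in the N-limited mutant, the unshared probe set of RPL18B gave -1.23, the lowest of the 20. The shared one, used above, gave -0.16. The medians of shared and unshared probe sets were computed after seeing the values of RPS23A, and their difference was not tested.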
